A study of Arabidopsis thaliana with 24 samples.

Results

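Of 517 splicing events that the authors listed as changed in red-grown rrc1 mutants of Arabidopsis thaliana, 76 introns that the genome annotation shows both spliced out and kept are described here, as annotated retained introns. They lay in 72 loci, and another 347 loci had listed events but none of these introns. A locus was taken if it had at least 1 event labelled IR or IR* in the tables of EMS27 against MLB or of rrc1-689 against Col-0, and no event with a label starting Alt, which marks alternative splice sites. Of 79 loci with such an intron, 6 were left out for an Alt event and 1 by name. The table of EMS27 and MLB held 43 of these introns among its 325 events, and the table of rrc1-689 and Col-0 held 48 among its 328. The label was IR for 53 of the 76 introns and IR* for 23. The sources used here do not explain the star.

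RNA was sequenced from whole seedlings in 24 libraries, 3 for each of 4 lines in red light and in darkness, and splicing reads of the 12 red-light libraries were used. EMS27 and rrc1-689 are mutants of RRC1, a splicing-related protein that acts in signalling by the red-light receptor phytochrome B (phyB). EMS27 was set against MLB, a line that makes phyB from the epidermal ML1 promoter in plants that lack their own phyB, and rrc1-689 was set against the wild type Col-0. All 4 lines have the Col-0 ecotype background per the labels, which do not describe the 2 mutant alleles further. Stratified for 2 days in the cold, the seeds received white light (50 µmol per m2 and s) for 6 h and then red light (19 µmol per m2 and s) for 60 h. The labels give 4 °C for both light steps. They leave unsaid if replicate libraries stem from different cultures, and p-values therefore reflect the spread among 3 libraries that could be technical alone. The tables held no expression level per library, so neither RRC1 nor tissue markers could be checked in them.

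An intron is retained when the spliceosome leaves it in the finished transcript. In plants, intron retention is the most common form of alternative splicing. A retained intron inside the coding region often brings a stop codon into the reading frame, and such transcripts can be degraded by nonsense-mediated decay or held in the nucleus, whereas one in an untranslated region (UTR) leaves the protein sequence as it is.

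In the TAIR10.1 annotation all 76 introns started with GT and ended with AG, and each was spliced out in at least 1 transcript and kept in at least 1 other. By the transcripts that splice them, 35 lay in the coding region, 16 in the 5′ UTR, 15 in the 3′ UTR and 2 in noncoding RNAs. The other 8 were coding in some transcripts and UTR in others. UTR introns thus made up 40.8% of the annotated retained introns, against 4.94% of the 243 listed introns that the authors gave no event label, which are spliced in nearly all annotated isoforms. The retained introns had a median length of 113 bases, shorter than the 229 bases of those 243 listed introns. It was close to the 102 bases of all 136049 annotated nuclear introns of 30 bases or more. Splice sites were scored as log2 odds against equal base use, from the base frequencies of all annotated introns, over 9 bases at the donor and 15 at the acceptor. The median donor score of 7.34 was close to the 7.14 of the other listed introns and the 7.0 of all introns. The median acceptor score was 6.10, against 7.10 and 7.71.

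Of the 43 introns that were coding in some or all transcripts, 39 hold a stop codon in the reading frame of the upstream exon. The 4 without one were in Cpn60beta4, AT4G39270, AT5G02940 and AT4G26600. For AT4G26600 (intron bin E015) and AT5G02940 the length is also a multiple of 3, so that the retained form keeps the frame. The sequences below show whole coding introns from genes described further on. They come from the RefSeq copy of TAIR10.1 and are written 5′ to 3′ on the gene's strand. Capitals mark the GT and AG ends and the first in-frame stop, which in AT4G26600 E017 shares its T with the donor. The intron of SCPL13 is at chr2:9779385-9779450 on the plus strand, that of AT1G73350 at chr1:27576346-27576430 on the minus strand, and the introns E015 and E017 of AT4G26600 at chr4:13422463-13422555 and chr4:13422636-13422713 on the plus strand.
SCPL13: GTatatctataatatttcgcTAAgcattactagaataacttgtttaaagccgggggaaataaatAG
AT1G73350: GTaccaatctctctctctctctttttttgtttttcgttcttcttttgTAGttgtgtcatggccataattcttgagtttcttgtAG
AT4G26600 E015: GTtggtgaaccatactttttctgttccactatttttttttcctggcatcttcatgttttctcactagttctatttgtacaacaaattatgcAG
AT4G26600 E017: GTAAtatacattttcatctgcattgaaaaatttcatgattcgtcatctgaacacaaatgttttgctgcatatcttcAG

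For introns in UTRs only the ends are shown, as 3 exon and 12 intron bases at the donor and 20 intron and 3 exon bases at the acceptor, with the GT and AG in capitals. They belong to 3 introns listed for both mutants that were lower in both, and to AT3G61010, the intron listed for both that rose most. The intron of AT1G20920 had high scores at both ends (9.06 at the donor, 9.57 at the acceptor). That of ATSRL1 had an acceptor score of -2.87, the lowest of the 76. The windows lie on chromosome 1 (AT1G20920, plus strand), chromosome 5 (ATSRL1, minus strand) and chromosome 3 (UBA2A and AT3G61010, minus strand).
AT1G20920 donor end at chr1:7288841-7288855: aatGTaagtcgagaa
AT1G20920 acceptor end at chr1:7288980-7289002: tagtttctgtcttttaacAGgaa
ATSRL1 donor end at chr5:14815926-14815940: aagGTtctttcaatg
ATSRL1 acceptor end at chr5:14815841-14815863: tgatgaaatctacaaccaAGtta
UBA2A donor end at chr3:21049337-21049351: gagGTgatatattat
UBA2A acceptor end at chr3:21049234-21049256: ctctttttggaaaagtgcAGctt
AT3G61010 donor end at chr3:22571693-22571707: agtGTaaggacctta
AT3G61010 acceptor end at chr3:22571555-22571577: tcatgtgtttgatcctaaAGgtt

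The series design asks which splicing changes depend on RRC1 by setting each red-grown mutant against its control line. The retention level of an intron is an estimate of the share of transcripts that keep it, among those that keep or splice it. It is the reads across its 2 exon-intron boundaries over those reads plus 2 times the reads of the spliced junction. The level pools both boundaries, which can differ. In MLB the first alone gave 66.9% for GSK1 and 73.5% for POB1, and the second alone 22.7% and 26.5%. Percentages of transcripts given below are such estimates. In EMS27 most annotated retained introns were kept less often than in MLB. At an adjusted p below 0.05 in limma's test on logit levels, fitted over all 325 events with Benjamini-Hochberg adjustment, 39 of 43 passed (90.7%, against 89.5% of all events), 31 of them lower in EMS27 and 8 higher. That is 72.1% and 18.6%, where 31.4% of all events of the table were called lower and 58.2% higher. Every event had been listed by the authors from these same libraries at a difference above 0.05 in fraction and an FDR below 0.05, so that the number called says little and the split by direction is the description. The median difference was -14.9 points over the 43 introns (range -57.8 to 39.1), against 7.49 points over all 325 events. The libraries of EMS27 and MLB did not overlap for 31 introns that were lower and 7 that were higher in EMS27, out of 43. Over all events of the table, 31.7% were lower and 57.5% higher without overlap.

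In rrc1-689 the annotated retained introns were split. Of 48, 43 passed the same test over 328 events (89.6%, against 88.7% of all events), 23 of them lower and 20 higher than in Col-0, which is 47.9% and 41.7%. Over all events of that table, 25.3% were called lower and 63.4% higher. The median difference was -1.41 points (range -61.4 to 40.1), against 8.41 points over all 328 events. The libraries of rrc1-689 and Col-0 did not overlap for 24 lower and 22 higher introns, where 26.5% of all events were lower and 65.9% higher without overlap. In the deposited fractions, introns labelled IR were higher in rrc1-689 in 19 of 31 cases and those labelled IR* in 5 of 17. In EMS27 the same counts were 8 of 31 and 2 of 12. Over all events, 72.0% were higher in rrc1-689 and 64.6% in EMS27 by that measure. Among introns with no event label, 108 of 147 were higher in rrc1-689 and 99 of 147 in EMS27. The 2 comparisons share no control libraries, but the lists differ in their introns, and no test of this difference between mutants was made over the lists.

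**Figure D1:**
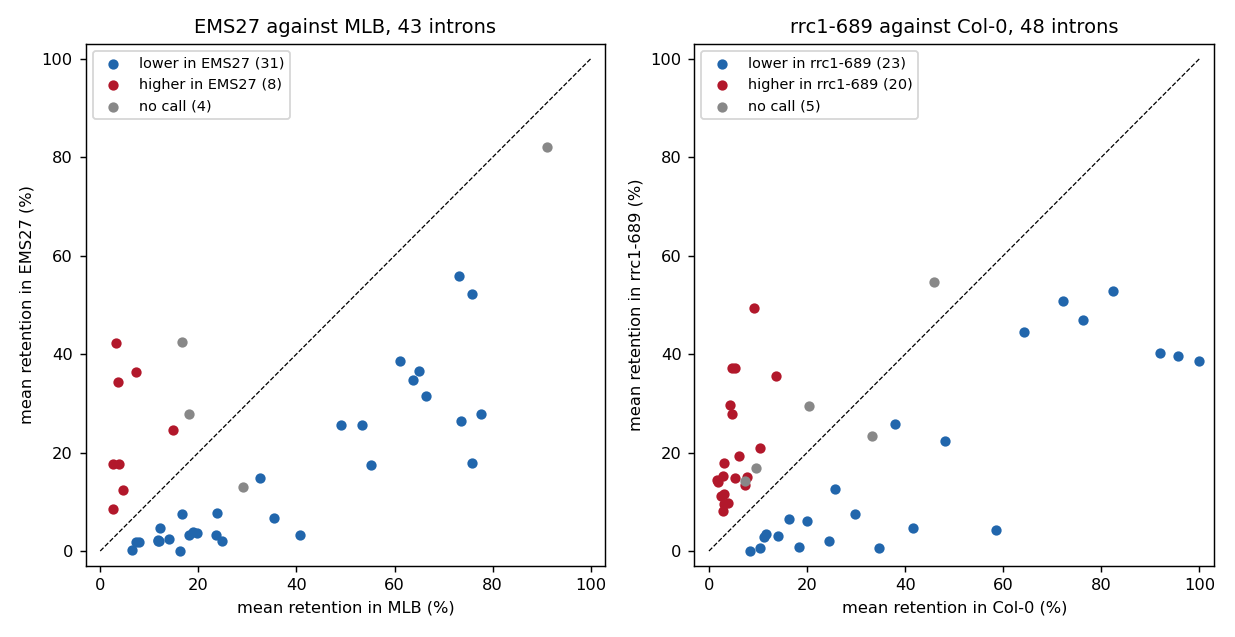
Mean retention level per annotated retained intron in the mutant (vertical axis, %) against its control line (horizontal axis, %), for EMS27 and MLB on the left and rrc1-689 and Col-0 on the right, each the mean of 3 libraries. Points on the dashed line would have equal levels. Introns called lower lie along the whole control range, from 6.39% to 77.6% in MLB and 8.47% to 100% in Col-0, and introns called higher lie at the left edge, at or below 14.9% in MLB and 13.7% in Col-0.

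Introns called lower tended to have higher levels in the control line than introns called higher, with overlapping ranges, and the control level is itself part of the difference. The 31 introns called lower in EMS27 had a median level of 6.73% in EMS27 and 24.8% in MLB, and 15 of them had a mean under 5% in EMS27. The 8 called higher had medians of 21.1% in EMS27 and 3.71% in MLB. For rrc1-689 the 23 lower introns had medians of 6.51% in rrc1-689 and 34.6% in Col-0, and the 20 higher ones 15.1% in rrc1-689 and 4.52% in Col-0. Since the authors listed only differences above 5 points, an intron kept in under 5% of transcripts in the control could be listed only as higher. By position, 12 of 17 UTR introns and 19 of 26 coding ones were called lower in EMS27. For rrc1-689, 13 of 23 UTR introns were called lower and 5 higher, whereas 8 of 23 coding ones were called lower and 15 higher. Calls by position were not counted over all events. All 19 coding introns called higher in either mutant hold an in-frame stop, as do 18 of the 22 called lower (81.8%). The 4 coding introns without one were all called lower. Among the 229 coding introns with no event label, 96.5% hold such a stop, so most listed coding introns hold one in any case.

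Both mutants were listed for 15 introns, which is 34.9% of the EMS27 introns and 31.2% of the rrc1-689 introns. Over all events, the shared ones were 41.8% of the EMS27 table and 41.5% of the rrc1-689 table. All 15 changed in the same direction in both mutants, 12 lower and 3 higher, and passed the test in both. The same held for direction in all 136 shared events of any kind. A limma test of the difference between the 2 mutants' changes called none of the 15 (lowest adjusted p = 0.841, and none at an unadjusted p below 0.05 in limma or in edgeR), where 2.21% of the 136 shared events were called. The 95% intervals of that difference on the logit scale were wide for some introns, from -2.26 to 1.62 for AT5G10350.

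The shared introns are described in the order of what their genes are annotated to do. This order, like the grouping of genes in the paragraphs that follow, was made by hand from the annotations and was not tested against other loci. The 3′ UTR intron of AT1G20920 (RCF1, a DEAD-box RNA helicase of pre-mRNA splicing needed for cold tolerance) had no retention read in any mutant library. Its level was 0% in all 3 EMS27 libraries, against 17.9, 16.4 and 14.6% in the MLB libraries. It was 0% in the 3 rrc1-689 libraries too, against 5.88, 11.8 and 7.69% in those of Col-0. The 0 among 120 reads in EMS27 allows a share of up to 2.5% of reads and the 0 among 147 in rrc1-689 up to 2.04%. Such limits rest on 3 reads and cover counting error only. The mutants and their control lines did not overlap, and the adjusted p values from limma were 0.000118 for EMS27 and 0.00063 for rrc1-689.

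UBA2A encodes an RNA-binding protein that interacts with UBP1, and its 3′ UTR intron was kept in 26.8, 24.9 and 24.7% of transcripts in EMS27, against 52.4, 45.5 and 49.0% in MLB. In rrc1-689 the levels were 19.2, 19.8 and 28.2%, against 47.9, 55.7 and 40.7% in Col-0. In both pairs, the retained form thus went with close to 1 in 2 transcripts of the control line, and the mutant libraries all lay below. The 5′ UTR intron of ATSRL1, of the PRP38 family of spliceosome-associated proteins, was kept in 26.5, 30.3 and 47.6% in EMS27, against 55.0, 74.1 and 62.3% in MLB. In rrc1-689 it was kept in 48.3, 41.2 and 43.7%, against 65.8, 62.7 and 64.0% in Col-0. The EMS27 call for ATSRL1 was lost without EMS27 replicate 1 (adjusted p = 0.0569), EMS27 replicate 2 (0.0501) or MLB replicate 2 (0.0533), all by limma.

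AT5G10350, annotated as an RNA-binding protein with an RRM motif, had the largest shared difference of the means. Its 5′ UTR intron was kept in 2.04, 0 and 7.69% of transcripts in EMS27, against 15.8, 26.3 and 80.0% in MLB. In rrc1-689 the levels were 4.00, 7.32 and 2.70%, against 22.2, 63.6 and 39.1% in Col-0. The control libraries varied widely and all lay above the mutants. RIK, a KH-domain protein named for binding the maize leaf-patterning factor RS2, had an intron at 4.63 ± 1.22% in EMS27 and 12.1 ± 3.82% in MLB, and at 3.14 ± 2.73% in rrc1-689 and 14.1 ± 2.51% in Col-0 (SD, n = 3 each). Its call in EMS27 was lost without EMS27 replicate 3 (limma adjusted p = 0.085), MLB replicate 1 (0.0615) or MLB replicate 3 (0.0674). MEE44, a nucleotidyltransferase-family protein, was kept at 3.22 ± 1.12% in EMS27 and 18.1 ± 5.62% in MLB. In rrc1-689 it was at 0.668 ± 0.604%, with 10.5 ± 3.60% in Col-0. From the first boundary alone the logit difference of MEE44 in EMS27 was -0.46 (limma adjusted p = 0.506), against -2.42 from the second and -1.69 from both.

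**Figure D2:**
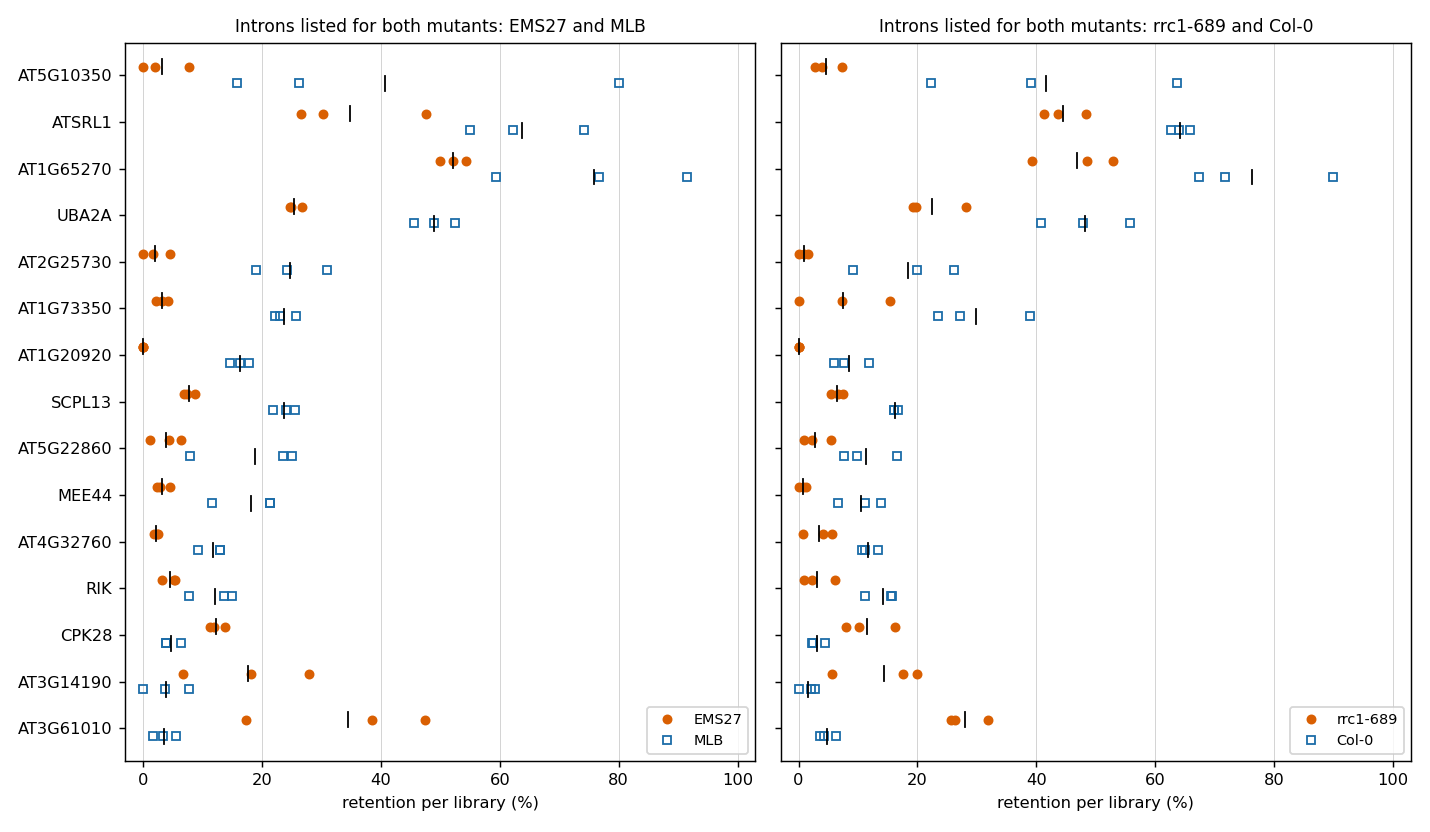
Retention level (horizontal axis, %) in each library for the 15 introns listed for both mutants, with EMS27 (filled) above MLB (open) on the left and rrc1-689 (filled) above Col-0 (open) on the right. Vertical ticks are means of 3 libraries. The upper 12 introns lie lower in both mutants and the bottom 3 (CPK28, AT3G14190, AT3G61010) lie higher, and 1 MLB library lies above 1 EMS27 library for AT3G14190.

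The remaining shared introns that were lower lay in genes of several functions. The intron of SCPL13, a serine carboxypeptidase-like protein, whose in-frame stop is shown above, was kept in 8.68, 6.96 and 7.48% of transcripts in EMS27, against 24, 21.8 and 25.5% in MLB. In rrc1-689 the levels were 5.50, 7.40 and 6.64%, against 16.7, 16.1 and 16% in Col-0. These were among the tightest replicates of the set, with no overlap, and the adjusted p from limma was 0.00353 in EMS27 and 0.00516 in rrc1-689. The coding intron of the ankyrin-repeat gene AT1G73350 was at 3.20 ± 0.972% in EMS27 and 23.7 ± 1.82% in MLB, and at 7.50 ± 7.63% in rrc1-689 and 29.8 ± 8.12% in Col-0 (SD, n = 3 each). Its rrc1-689 call was lost on leaving out rrc1-689 replicate 1 or any 1 Col-0 library (limma adjusted p of 0.0526, 0.0636, 0.0912 and 0.0676). The intron of AT2G25730, a FYVE zinc finger protein, was at 2.08 ± 2.34% in EMS27 and 24.8 ± 5.94% in MLB. In rrc1-689 it was at 0.868 ± 0.813%, with 18.4 ± 8.64% in Col-0.

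AT1G65270, which is annotated as a subunit of the ER membrane protein complex, was kept at 52.2 ± 2.19% in EMS27 and 75.8 ± 16% in MLB, and at 46.9 ± 6.96% in rrc1-689 and 76.3 ± 11.9% in Col-0. Its EMS27 call stood at a limma adjusted p of 0.0498 and was lost without EMS27 replicate 1, 2 or 3 or without MLB replicate 1 or 3 (0.102, 0.0895, 0.114, 0.0961 and 0.0974). Its rrc1-689 call was lost without rrc1-689 replicate 3 (0.0588). AT5G22860, a serine carboxypeptidase of the S28 family, was at 3.96 ± 2.64% in EMS27 and 18.9 ± 9.48% in MLB, and at 2.84 ± 2.32% in rrc1-689 and 11.3 ± 4.60% in Col-0. For AT5G22860 the EMS27 call was lost without EMS27 replicate 1 (0.0601) or MLB replicate 2 or 3 (0.0627 and 0.0755). From the first boundary alone its logit difference in EMS27 was -0.74 (limma adjusted p = 0.147), against -2.26 from the second and -1.65 from both. AT4G32760, an ENTH/VHS/GAT protein of the kind that sorts membrane cargo, was at 2.21 ± 0.368% in EMS27 and 11.8 ± 2.13% in MLB, and at 3.49 ± 2.54% in rrc1-689 and 11.7 ± 1.48% in Col-0. Its rrc1-689 call was lost without any 1 of the Col-0 libraries (0.053, 0.0506 and 0.0616).

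The 3 shared introns that were kept more often in the mutants were of 3 unlike genes. CPK28, a calcium-dependent protein kinase that limits immune signalling, had levels of 13.8, 11.9 and 11.3% in EMS27, against 3.87, 3.83 and 6.38% in MLB. In rrc1-689 they were 8.06, 10.2 and 16.3%, against 2.41, 2.30 and 4.39% in Col-0, and neither pair overlapped. The 3′ UTR intron of AT3G61010, annotated as a ferritin/ribonucleotide reductase-like protein, was at 47.4, 38.5 and 17.4% in EMS27, against 1.75, 5.62 and 3.45% in MLB. In rrc1-689 it was at 26.3, 31.9 and 25.6%, against 4.35, 3.57 and 6.25% in Col-0. The 5′ UTR intron of AT3G14190 (PANS1, a protector of chromosome cohesion) was at 17.6 ± 10.7% in EMS27 and 3.80 ± 3.85% in MLB, with overlapping libraries, and at 14.4 ± 7.75% in rrc1-689 and 1.61 ± 1.42% in Col-0, without overlap. Its EMS27 call (limma adjusted p = 0.0452) was lost without EMS27 replicate 1 or 3 or MLB replicate 2 or 3 (0.131, 0.109, 0.068 and 0.122).

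For EMS27 alone 28 introns were listed, of which 19 were called lower and 5 higher. Over all events of the EMS27 table, shared ones included, 31.4% were called lower and 58.2% higher. A locus missing from one table is not shown to be unaltered in that mutant, since only events past the authors' thresholds have reads there. AT4G26600, annotated as a methyltransferase that uses S-adenosylmethionine, held 3 of the 28, in neighbouring introns, and they had the largest falls in EMS27. Intron E019 was kept in 20.9, 21.7 and 11.1% of transcripts in EMS27, against 84.2, 62.3 and 80.8% in MLB. Intron E017 was at 31.9, 27.3 and 24.2% in EMS27, against 69.7, 71.4 and 91.7% in MLB. Intron E015, which keeps the frame, was at 29, 29.2 and 21.2% in EMS27, against 65, 82.4 and 73.1% in MLB. In MLB the retained form was thus the main one for all 3 introns and in EMS27 it was the minor one, with limma adjusted p of 0.00166, 0.00414 and 0.00185. The 3 introns share one gene and are not independent of each other.

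Of the other introns that fell in EMS27, those of kinase and ubiquitin-related genes come first. GSK1 (also named BIL2), a GSK3-like kinase of brassinosteroid signalling, had a 3′ UTR intron kept in 22.5, 20.9 and 33.3% of transcripts in EMS27, against 51.5, 55.8 and 52.9% in MLB. POB1 (LRB2) is a BTB-domain adaptor of ubiquitin ligases that act on phyB and its partner PIF3. Its coding intron was at 34.1, 44.9 and 36.6% in EMS27, against 58.3, 62.8 and 62.5% in MLB. Neither gene's libraries overlapped, and the limma adjusted p was 0.00752 for GSK1 and 0.0148 for POB1. UBC35, a ubiquitin-conjugating enzyme, kept its intron in 0.136 ± 0.236% of transcripts in EMS27 and 6.39 ± 1.46% in MLB (SD, n = 3 each). The receptor-like kinase gene CRK29 was at 3.60 ± 4.04% in EMS27 and 19.7 ± 7.50% in MLB, but it overlaps AT4G21400, and the sources used here do not say whether counting used strand. The protein kinase gene AT1G49180 was at 17.4 ± 9.35% in EMS27 and 55.3 ± 4.37% in MLB.

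Several further introns fell in EMS27. ALDH11A3, a glyceraldehyde-3-phosphate dehydrogenase of the cytosol, was at 55.9 ± 3.64% in EMS27 and 73.1 ± 3.28% in MLB. GPDHC1, which encodes a cytosolic glycerol-3-phosphate dehydrogenase, was at 36.5 ± 6.96% in EMS27 and 65 ± 6.47% in MLB, and the plastid glucose transporter gene PGLCT at 1.86 ± 1.44% in EMS27 and 7.93 ± 3.12% in MLB. All 3 lay in or partly in the 5′ UTR. AT1G05870, of unknown function, was at 31.4 ± 8.90% in EMS27 and 66.4 ± 5.51% in MLB. AT2G32880, a TRAF-like protein, was at 2.41 ± 2.12% in EMS27 and 14.1 ± 4.04% in MLB. ACD5, the ceramide kinase that limits cell death, was at 2.08 ± 3.61% in EMS27 and 11.7 ± 9.09% in MLB, with overlapping libraries and a limma adjusted p of 0.0453. The other 5 introns lower in EMS27 alone were not in the groups above. AT3G24740, of unknown function, was at 6.73 ± 5.92% in EMS27 and 35.5 ± 7.41% in MLB, and the receptor-like kinase gene AT4G39270 at 14.8 ± 4.39% in EMS27 and 32.5 ± 3.51% in MLB. AT5G02940, a POLLUX-like ion channel whose intron keeps the frame, was at 7.45 ± 2.14% in EMS27 and 16.7 ± 2.45% in MLB. AT4G30993, a phosphoesterase, was at 2.0 ± 1.8% in EMS27 and 12 ± 5.33% in MLB, and the ribonuclease III gene AT3G13740 at 1.75 ± 2.16% in EMS27 and 7.29 ± 1.45% in MLB. None of these 5 overlapped, and AT4G30993 shares its place with the overlapping locus AT4G08425.

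The 5 introns that were higher in EMS27 alone rested on fewer reads in part. emb2191 (TAD2, a subunit of the enzyme that deaminates adenosine in tRNA anticodons) was kept in 30.8, 50.0 and 28.6% of transcripts in EMS27, against 2.13, 14.3 and 5.26% in MLB. IMPA-2, an importin alpha that carries proteins into the nucleus, was at 24.5, 25.1 and 24% in EMS27, against 14.7, 16.3 and 13.8% in MLB. Both were free of overlap, and IMPA-2 had at least 187 reads in every library where emb2191 had at least 10. GYRB2, a DNA gyrase subunit of organelles, was at 17.7 ± 4.07% in EMS27 and 2.56 ± 4.44% in MLB, and the ABC transporter gene ABCB28 at 8.57 ± 3.23% in EMS27 and 2.57 ± 1.70% in MLB. AT1G76020, a thioredoxin-superfamily protein, was at 15.8, 100 and 11.1% in EMS27, against 3.90, 1.30 and 4.35% in MLB. One EMS27 library thus stood far above the other 2, the smallest library held 5 reads, and the fraction in the authors' deposited table, from summed reads, was 23.8% in EMS27 and 3.0% in MLB. Its call was lost without MLB replicate 1, 2 or 3 (limma adjusted p of 0.0735, 0.0966 and 0.0827).

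The 4 introns listed for EMS27 but not called here were those of RIE1, SIZ1, AT1G52100 and AT5G21222. SIZ1, a SUMO ligase, was at 82.0 ± 5.07% in EMS27 and 91.1 ± 8.32% in MLB (SD, n = 3 each, limma adjusted p = 0.151), the highest control level of the 43. RIE1, a RING-finger protein of embryo development, was at 13 ± 7.70% in EMS27 and 29.2 ± 4.16% in MLB (limma adjusted p = 0.0533).

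**Figure D3:**
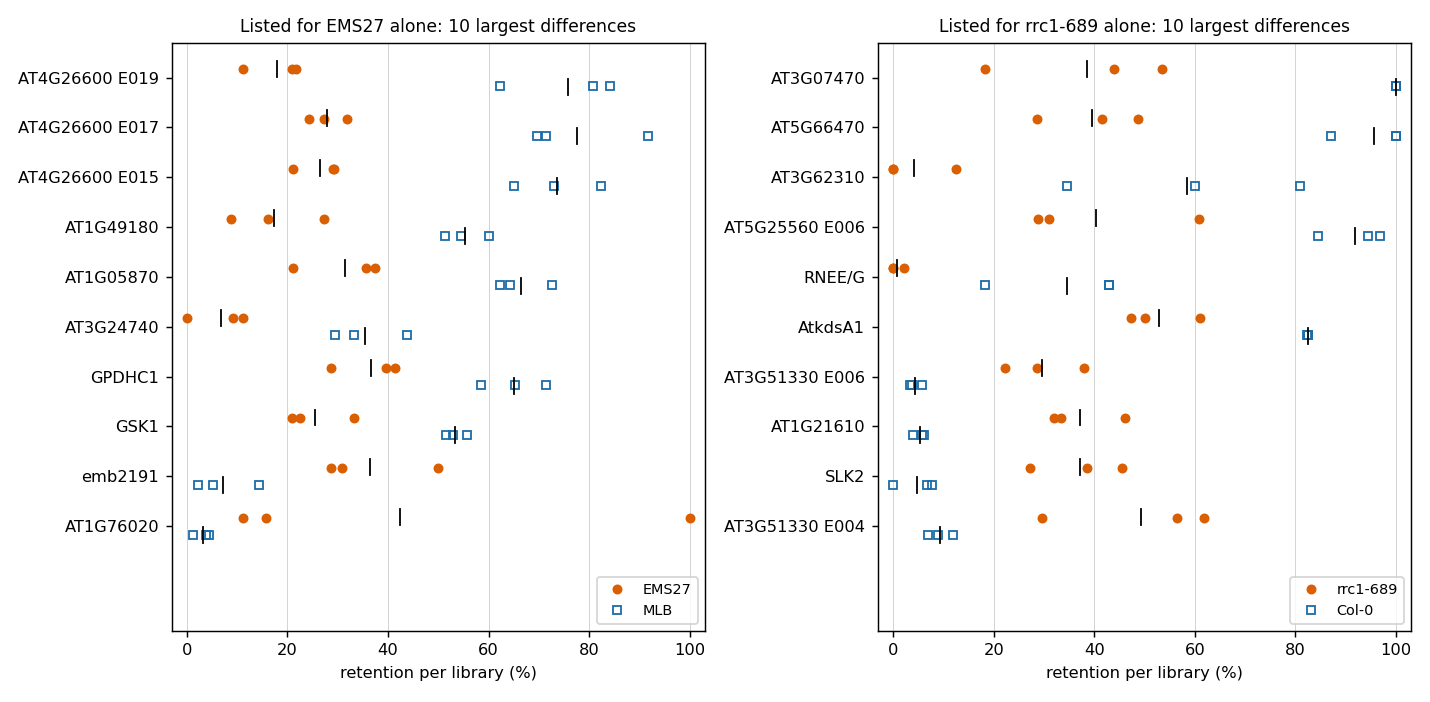
Retention level (horizontal axis, %) in each library for the 10 introns with the largest difference of means among those listed for EMS27 alone (left, EMS27 filled above MLB open) and for rrc1-689 alone (right, rrc1-689 filled above Col-0 open). Vertical ticks are means of 3 libraries. For AT1G76020, 1 EMS27 library is at 100% and the other 2 at 15.8% and 11.1%, and no pair of groups overlaps.

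For rrc1-689 alone 33 introns were listed, of which 11 were called lower and 17 higher. Over all events of the rrc1-689 table, shared ones included, 25.3% were called lower and 63.4% higher. Among the 33 introns, the lower ones held the largest differences. AT3G62310, an RNA helicase, was kept in 12.5, 0 and 0% of transcripts in rrc1-689, against 34.6, 60.0 and 81.0% in Col-0. RNEE/G, a chloroplast ribonuclease of the RNase E/G kind, was at 0, 0 and 2.13% in rrc1-689, against 42.9, 18.2 and 42.9% in Col-0. Both were nearly always spliced in the mutant, on as few as 8 reads for AT3G62310 and 5 for RNEE/G in a library, and the limma adjusted p was 0.00465 and 0.00108.

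AT5G66470, a GTP-binding protein like bacterial Era (a factor of ribosome assembly), was at 28.6, 48.8 and 41.5% in rrc1-689, against 100, 87.0 and 100% in Col-0. AT5G25560, a CHY-type RING zinc finger protein, had 2 listed introns in its 5′ UTR. Its intron E006 was at 28.9, 60.9 and 31% in rrc1-689, against 96.8, 94.4 and 84.4% in Col-0. Its intron E010 was at 6.07 ± 2.19% in rrc1-689 and 20 ± 2.99% in Col-0. For E006 the unspliced form was thus nearly the sole one in Col-0, at 90.7% from the first boundary alone and 91.4% from the second. For AT5G66470 the Col-0 level was 57.1% from the first boundary and 97.5% from the second. It rested on 4 reads at the first and 117 at the second, with 3 spliced reads, and so mainly on the second boundary. In rrc1-689 the levels of both introns were near or below 1 in 2, except in 1 library of E006. AtkdsA1, which makes a sugar acid of pectin, was at 50.0, 47.4 and 61.1% in rrc1-689, against 82.5, 82.4 and 82.5% in Col-0. AT3G07470, of unknown function, was at 38.6 ± 18.3% in rrc1-689 and at 100% in all 3 Col-0 libraries, but these held 8 reads together and 1 library only 2. With 0 spliced reads among 8, spliced reads could make up to 37.5% of reads.

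The remaining introns that fell in rrc1-689 alone were the following 4. HEME1, a uroporphyrinogen decarboxylase of tetrapyrrole synthesis, was at 25.8 ± 0.746% in rrc1-689 and 37.9 ± 1.63% in Col-0 with at least 499 reads in every library. It overlaps AT3G14920, and reads of the 2 genes cannot be told apart without strand. Cpn60beta4, a chloroplast chaperonin subunit, was at 12.6 ± 1.84% in rrc1-689 and 25.7 ± 2.59% in Col-0. The noncoding RNA gene AT1G25175 held the most reads, at least 1551 in a library, and was at 50.7 ± 1.25% in rrc1-689 and 72.2 ± 3.10% in Col-0. The other noncoding RNA gene, AT4G06701, was at 2.1 ± 1.95% in rrc1-689 and 24.5 ± 17.7% in Col-0.

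The 17 introns that rose in rrc1-689 alone included 2 of one protease gene. AT3G51330, an aspartyl protease, had intron E004 at 56.5, 29.7 and 61.9% in rrc1-689, against 8.86, 12 and 6.93% in Col-0. Its intron E006 was at 22.2, 28.6 and 37.9% in rrc1-689, against 3.45, 3.77 and 5.75% in Col-0. With AT4G26600 and AT5G25560 this made 3 loci with more than 1 of the 76 introns, and in each the introns of a locus changed in the same direction.

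SLK2, a SEUSS-like transcriptional co-repressor, was kept in 27.3, 38.5 and 45.5% in rrc1-689, against 7.69, 6.67 and 0% in Col-0, on 6 reads in the smallest library. AT1G21610 (UBN1, a histone chaperone subunit) was at 33.3, 32 and 46.2% in rrc1-689, against 6.25, 5.66 and 4.00% in Col-0. Both had no overlap, with limma adjusted p of 0.00326 for SLK2 and 0.00104 for AT1G21610. The homeobox gene KNAT5 was at 14.8 ± 2.1% in rrc1-689 and 5.38 ± 0.696% in Col-0 (SD, n = 3 each). BT1, a BTB and TAZ domain protein, was at 19.3 ± 5.55% in rrc1-689 and 6.08 ± 1.29% in Col-0, and the kinase gene STY46, whose product acts on chloroplast precursor proteins, at 8.20 ± 2.03% in rrc1-689 and 2.83 ± 0.987% in Col-0.

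EMB3103, a pentatricopeptide-repeat protein of the kind that binds organelle RNA, was kept in 34.6, 36.1 and 35.8% of transcripts in rrc1-689, against 11.6, 18.2 and 11.4% in Col-0. PAPS2, a nuclear poly(A) polymerase, was at 15.1 ± 1.30% in rrc1-689 and 7.81 ± 1.44% in Col-0. AT1G01080, an RRM protein, was at 9.54 ± 4.07% in rrc1-689 and 2.98 ± 1.48% in Col-0, and CID7, which binds the poly(A)-binding protein, at 9.71 ± 1.30% in rrc1-689 and 3.80 ± 1.92% in Col-0. No overlap was seen for these 4. FLK, a KH-domain protein that promotes flowering, was at 16.9 ± 3.73% in rrc1-689 and 9.53 ± 3.86% in Col-0 and was not called (limma adjusted p = 0.0757). Nor were SBI1, AT5G19480, AT4G19160 and AT1G07820, with limma adjusted p of 0.102, 0.0905, 0.27 and 0.0793.

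SULTR1;2, a root sulfate transporter, was at 21.0 ± 1.07% in rrc1-689 and 10.5 ± 2.75% in Col-0, and HIT1, the VPS53 subunit of a vesicle-tethering complex, at 17.8 ± 5.91% in rrc1-689 and 2.99 ± 2.70% in Col-0. AT1G56500 (SOQ1, a thylakoid protein that limits a slow form of light-energy quenching) was at 13.8, 13.3 and 14.8% in rrc1-689, against 2.44, 0.929 and 2.07% in Col-0. PLDGAMMA2, a phospholipase D, was at 15.2 ± 3.12% in rrc1-689 and 2.92 ± 1.84% in Col-0. The last 2 were AT1G07700, a thioredoxin-superfamily protein, at 11.1 ± 4.76% in rrc1-689 and 2.49 ± 1.43% in Col-0, and AT5G22920, a CHY-type RING zinc finger protein, at 13.4 ± 0.278% in rrc1-689 and 7.25 ± 1.92% in Col-0.

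A retained intron should give reads at both of its boundaries with the exons. The direction at both boundaries was the same for 30 of the 31 introns called lower and all 8 called higher in EMS27, and for 22 of 23 lower and 19 of 20 higher in rrc1-689. Some of the largest changes stood mainly at one boundary. For AT3G61010 the level computed from the first boundary alone was 46.3% in EMS27 and 5.77% in MLB, and from the second boundary 2.70% in EMS27 and 2.00% in MLB. In rrc1-689 it was 43.5%, against 8.57% in Col-0, at the first, and 2.50%, against 0% in Col-0, at the second. AT1G21610 changed mainly at the second boundary, with 53.9% in rrc1-689 and 9.38% in Col-0 there. At the first it had 2.08% in rrc1-689 and 0.855% in Col-0. First and second follow the deposited numbering, which was not matched here to donor and acceptor. AT3G61010 lies on the minus strand and AT1G21610 on the plus strand, so the same number may not be the same splice site. For AT5G10350 the first boundary had no read in EMS27 or MLB, and the second was at 6.00% in EMS27 and 50.0% in MLB.

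In rrc1-689 the first boundary of AT5G10350 was at 2.0%, against 13.8% in Col-0, and the second at 7.55%, against 56.1% in Col-0. In points, these 3 introns thus changed mainly at 1 end, although AT5G10350 also fell at the first boundary in rrc1-689. In EMS27 the changes of MEE44 and AT5G22860 were also larger at the second. Other introns were one-sided too. GYRB2 was at 28.0% in EMS27 and 5.88% in MLB at the first, and 5.26% in EMS27 and 3.03% in MLB at the second. In AT3G51330 E006 the first was at 43.8% in rrc1-689 and 7.69% in Col-0, and the second at 6.9% in rrc1-689 and 0.826% in Col-0. Lost calls were followed only for introns that the rule for named introns took. In EMS27 the limma call was also lost from the first boundary alone for ATSRL1 (adjusted p = 0.0597) and RIK (0.201), from the second alone for CPK28 (0.0887), AT2G32880 (0.0997) and AT1G76020 (0.105), and from either alone for AT1G65270 (0.0665 and 0.0833) and AT3G14190 (0.0689 and 0.0901). In rrc1-689 it was lost from the first alone for AT3G14190 (0.0577) and from the second alone for ATSRL1 (0.112), AT1G65270 (0.16) and RIK (0.0663). In CID7 the 2 boundaries moved in opposite directions, with 16.2% in rrc1-689 and 3.63% in Col-0 at the first and 1.72% in rrc1-689 and 3.84% in Col-0 at the second. In AT1G25175 the first was at 66.1% in rrc1-689 and 83.5% in Col-0, and the second at 9.19% in rrc1-689 and 6.71% in Col-0. The introns of AT4G26600 changed alike at both ends, as for E019 with 16.7% in EMS27 and 76.0% in MLB at the first boundary and 19.1% in EMS27 and 73.5% in MLB at the second. With 1 boundary alone fewer introns were called in EMS27, at 25 from either boundary against 39 with both. Most of those called were lower, at 20 lower and 5 higher from the first and 23 lower and 2 higher from the second. The share of all events called in these fits is not given here.

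**Figure D4:**
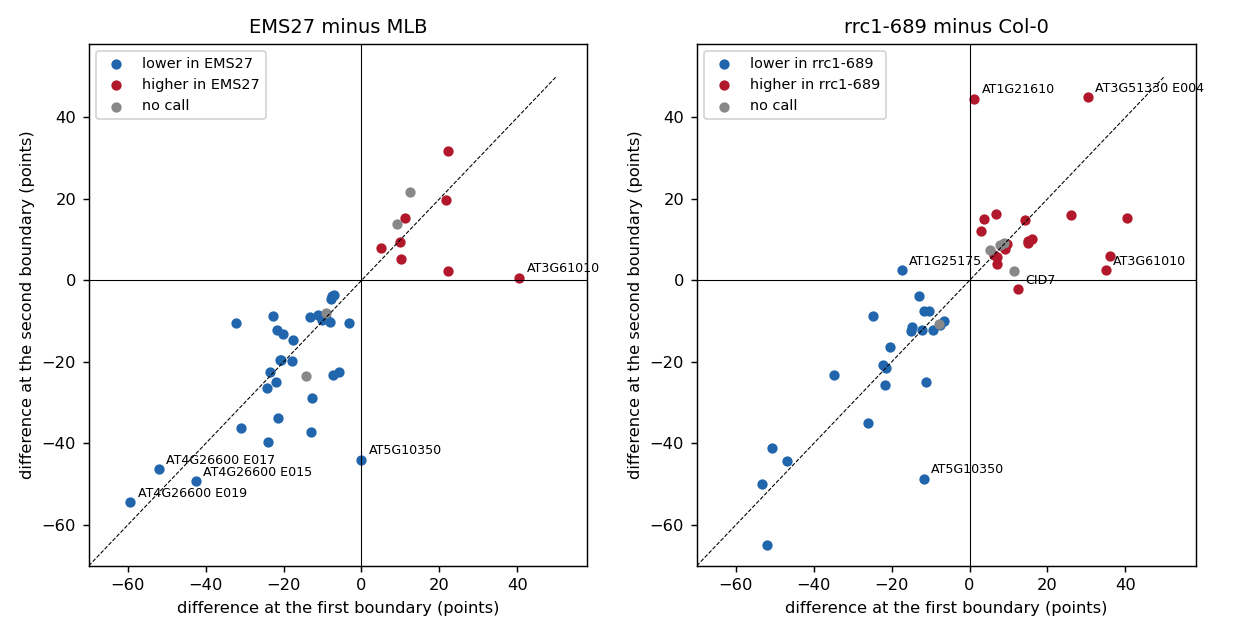
Difference in retention level, mutant minus control line in percentage points from reads summed over 3 libraries, computed from the second exon-intron boundary alone (vertical axis) against the first alone (horizontal axis), for EMS27 minus MLB (left) and rrc1-689 minus Col-0 (right). Points on the dashed line changed equally at both ends. AT3G61010 lies on the horizontal zero line and AT1G21610 and, in EMS27, AT5G10350 lie on the vertical one, whereas the 3 introns of AT4G26600 lie near the dashed line.

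Some member loci had another listed event. In RIK a second intron, spliced in all annotated isoforms, was kept in 32.7 ± 8.71% of transcripts in EMS27 and 92.5 ± 6.61% in MLB, and in 25.2 ± 4.9% in rrc1-689 and 94.1 ± 5.95% in Col-0 (SD, n = 3 each). ACD5 had such an intron at 0% in all EMS27 libraries, against 25.2 ± 2.98% in MLB, and at 2.95 ± 2.62% in rrc1-689 and 24.9 ± 7.86% in Col-0. In both genes it fell with the annotated retained intron in EMS27. In ATSRL1 the inclusion of an exon went the other way from its retained intron, at 18.9 ± 3.20% in rrc1-689 and 8.28 ± 3.04% in Col-0 (limma adjusted p = 0.0186). Another event of ATSRL1 was also higher, at 32.1 ± 2.53% in rrc1-689 and 13.1 ± 3.21% in Col-0 (limma adjusted p = 0.00621). In AT1G05870 another event was at 96.8 ± 5.5% in EMS27 and 77.6 ± 7.76% in MLB (limma adjusted p = 0.0128), while its retained intron fell. In AT1G65270 and AtkdsA1 another event fell with the retained intron in rrc1-689. In all, 11 of the 72 loci had another listed event, and not all events are given here.

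At the level of whole genes, 5 of the 72 loci (6.94%) had a row in the authors' deposited table of MLB over EMS27, against 10.1% of the 347 other loci with a listed event, and 5.99% of the 19143 genes tested. All 5 had positive log2 fold changes in the authors' deposited table, which are MLB over EMS27 and mean less RNA in EMS27, as had 792 of all 1146 genes in that table. They were BT1 at 2.37, AT1G56500 at 1.93, AT2G32880 at 1.77, AT1G76020 at 1.08 and RIK at 1.06, all log2. The retained introns of AT2G32880 and RIK were lower in EMS27, that of AT1G76020 was higher, and those of AT1G56500 and BT1 were not listed for EMS27. AT1G56500 had another intron listed for EMS27, kept in 8.64 ± 6.19% in EMS27 and 1.18 ± 1.47% in MLB.

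The authors' deposited table of red over dark in MLB held 12 of the 72 loci (16.7%), against 15.3% of the other 347 loci and 19.5% of the 19916 genes tested. Of the 12, 11 were higher in red light, as were 2540 of all 3887 genes in the authors' deposited table, and CRK29 was lower, at a log2 fold change of -1.06. Highest in red light by the authors' deposited table were AT2G32880 (2.42), AT5G02940 (2.08), HEME1 (2.03) and AT1G56500 (1.98), on the log2 scale. AT4G26600 was also higher in red light there, at 1.69 on the log2 scale. The shares of both tables were close to those of other loci with events.

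None of the 72 loci belonged to any of 4 short, hand-made gene lists. Loci left out for an Alt event or by name could not count here, so this absence may be partly set by the choice of loci. The lists are not complete: that of splicing factors leaves out AT1G20920 and ATSRL1, and that of light signalling leaves out POB1, all described above. Of 25 splicing factor genes 5 had some listed event, and so had 3 of 15 core clock genes, 1 of 25 light signalling genes and 1 of 4 genes of nonsense-mediated decay. Those events fall outside the annotated retained introns as chosen here.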

How the data were processed

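Reads were aligned with TopHat2 2.1.1 to TAIR10, per the submitters' processing notes, and splicing was tabulated with ASpli per the deposited information sheet. The sources used here do not say how strand and shared reads were counted. Raw read counts of the 12 red-light libraries, at 2 boundaries and at the spliced junction of each event, were deposited by the authors. Also deposited was a fraction of retention per group, from reads summed over libraries, with a p-value and FDR. The authors gave the difference of the fractions as a signed score. Their deposited gene tables held log2 fold changes, p-values and FDR of listed genes only (absolute log2 fold change above 1, FDR below 0.01), and genes tested were recovered from the relation of p to FDR. The deposited fractions followed from the counts within 0.0001 for all 325 and 328 events. Depth was 24482 to 28447 event reads per library for EMS27 and MLB and 34004 to 38559 for rrc1-689 and Col-0, with 39.0 to 50.0 and 50.5 to 68.0 reads in the median annotated retained intron.

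Levels per library are given as mean ± SD. limma 3.58.1 in R 4.3.3 was fitted to logit levels with 0.5 added to both read sums, over all events of a table and the 2 groups compared, with Benjamini-Hochberg adjustment. The difference between mutants was a contrast over the 4 groups and 136 shared events. With 3 libraries against 3, an exact permutation test of 1 event cannot go below p = 0.1. Alternatives were edgeR 4.0.16 on reads, other added values, a read minimum, 1 boundary alone, trend and robust options, a replicate block and leaving out each library. Introns were matched by coordinates to the RefSeq annotation of TAIR10.1. The members and lists were chosen with earlier results of these data known. The rule for named introns took those in both tables, the 10 largest differences per table, those in the 4 gene lists and those of loci in the table of MLB over EMS27. The other introns, and the sequences of AT4G26600, were named after their values were seen.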

Additional observations from a re-analysis of the deposited data

How the results depend on the processing

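Of 680 comparisons of 49 named results with an alternative, 624 kept direction and side of the threshold, 56 kept direction and lost the call, and none reversed, and 30 results kept their side in every alternative. Counts of introns called in EMS27 were 25 from the first boundary alone (5 higher, 20 lower) and 25 from the second (2 higher), against 39 (8 higher, 31 lower) with both, and 13 were higher in rrc1-689 from the second alone, against 20. Leaving out 1 library at a time gave 28 to 35 calls in EMS27 (5 to 7 higher, 23 to 28 lower), 39 to 41 in rrc1-689 (18 to 21 higher, 20 to 22 lower) and 0 to 0 for a difference between the mutants. Without a library, calls were lost for 9 named results. Same-numbered libraries had correlations of deviations of 0.032, -0.024 and 0.109 for EMS27 and MLB and -0.078, -0.048 and -0.001 for rrc1-689 and Col-0. Those of differently numbered libraries ranged from -0.111 to 0.116. Such values cannot show whether same-numbered libraries were grown or prepared together. With the replicate block 28 introns were lower and 7 higher in EMS27, and 21 lower and 19 higher in rrc1-689, and 3 named calls were lost. The shares of all events called under these alternatives are not given here. The loss of calls can thus not be set apart from that over the whole list of events.

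Depth limits the rest: 6 of 43 introns in the EMS27 table and 4 of 48 in the rrc1-689 table had under 10 reads in some library. The authors chose all introns on these libraries, so no value here is an independent test, and introns outside the lists were not analysed here.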
